A study of Mus musculus with 4 samples.

Results

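The 10 genes described here encode the chains of the interleukin-2 (IL-2) receptor (Il2ra, Il2rb, Il2rg), the transcription factors that the receptor activates (Stat5a, Stat5b) and well-known targets of those factors (Cish, Socs2, Socs3, Pim1, Pim2). They were taken by name, through their Ensembl identifiers, from a table of 47729 mouse gene rows. All 10 were matched and all 10 passed the filter on low counts. RNA was sequenced from CD4 T cells of the C57BL/6 mouse spleen that had been steered in culture to become induced regulatory T (iTreg) cells. Every culture received TGF-β (5 ng/mL), recombinant human IL-2 (100 U/mL) and antibodies to IL-4 and IFN-γ (5 μg/mL each). In the study's methods the T cells were also stimulated with antibodies to CD3 and CD28, so no condition without this stimulation is held either. One group was given ferrous sulfate (FeSO4, 50 μM) and the control group, called Mock, was given PBS, both for 4 days, with 2 libraries per group. All cells saw the same added IL-2, so these libraries hold no condition without the cytokine. According to the study's methods the libraries are pairs, each pair from its own independent experiment. The labels do not tie a replicate number to an experiment, and p-values then measure only the spread between these samples.

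IL-2 binds a receptor made of an α chain (CD25, the product of Il2ra), a β chain (CD122, Il2rb) and the common γ chain (CD132, Il2rg). The β and γ chains carry the Janus kinases JAK1 and JAK3, which phosphorylate STAT5A and STAT5B, and these then enter the nucleus and switch on target genes. Regulatory T cells are known for high CD25 and for their need of IL-2 and STAT5, in part because STAT5 helps to maintain Foxp3, the transcription factor that defines them. Among the targets, CIS and the SOCS proteins feed back to dampen cytokine receptors, and the PIM kinases are serine/threonine kinases that favour survival and growth.

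Among the 10 genes, Pim2 rose the most in FeSO4, by 1.78-fold, and Socs2 rose by 14.2%, while Stat5a, Pim1, Stat5b and Il2rb fell by 26.8%, 22.1%, 15.5% and 14.7%. Il2ra, Il2rg, Cish and Socs3 did not pass the test. These changes are based on CPM, the reads of a gene scaled to a common library size, after trimmed-mean (TMM) scaling and on edgeR's quasi-likelihood test with Benjamini-Hochberg adjustment over 13732 genes, and a gene is called where its adjusted p is under 0.05.

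Library totals ran from 35183187 to 40859178 gene counts, so that 3 reads equal 0.0734 to 0.0853 CPM and depth did not limit any of the 10 genes. The T cell and Treg markers Cd3d, Cd3e, Cd3g, Cd4, Cd28, Foxp3 and Ctla4 summed to 2448 to 2496 CPM in Mock and 2523 to 2711 CPM in FeSO4, and 3 of the 7 rose and 1 (Foxp3) fell. Some markers of other cells moved with the groups. The 4 NK cell markers summed to 1.65 to 1.82 CPM in Mock and 2.76 to 3.42 CPM in FeSO4, with Klrk1 called higher and the defining markers Ncr1 and Klrb1c at 0 in all 4 libraries. The 7 myeloid markers summed to 87.95 to 98.1 CPM against 115.8 to 118.3 CPM, of which Cst3, called higher, made up the most, with Lyz2, Cd14, Csf1r and Itgax at 0 in both FeSO4 libraries. In Mock 1 and 2, Lyz2 had 164 and 8 reads, Csf1r 7 and 0, Cd14 4 and 0, and Itgax 3 and 0. Mock 1 thus stood apart from the other libraries in these markers. The 3 erythroid markers summed to 19.75 to 25.19 CPM against 32.63 to 37.6 CPM, a rise of Hba-a1 alone (called higher), since Hbb-b1 had 12 and 0 reads in Mock and 0 in FeSO4, and Alas2 had 16 and 6 against 4 and 6. The 4 B cell markers, with none called, summed to 2.53 to 3.38 CPM against 2.38 to 2.57 CPM and overlapped, and the 2 CD8 markers to 9.04 to 9.81 CPM against 9.95 to 11.02 CPM, again with none called. Their part in the results was not tested, and in bulk RNA a smaller number of cells of a type cannot be told apart from less RNA per cell.

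**Figure D1:**
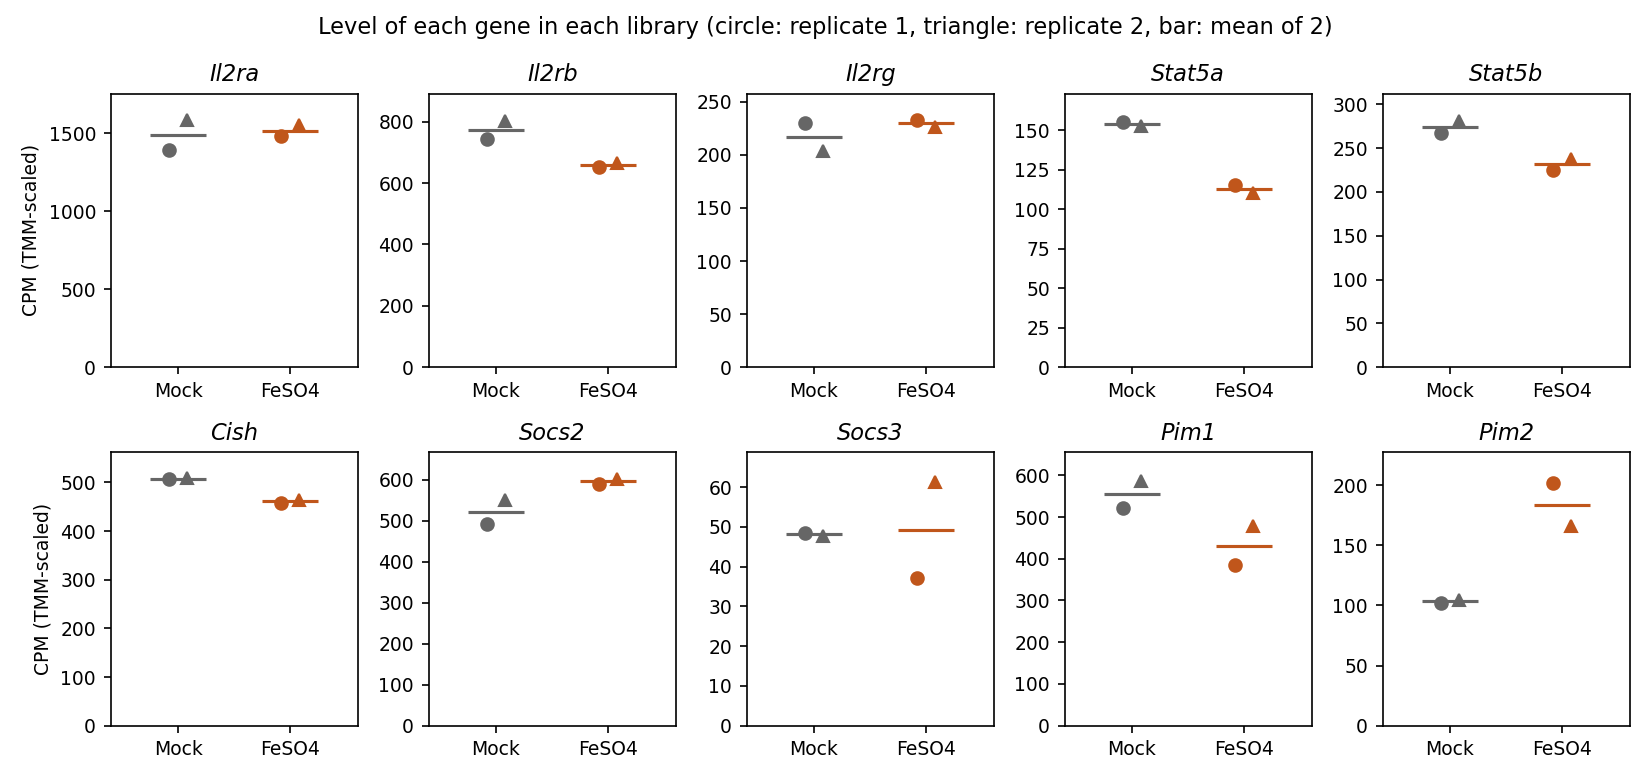
Level of each of the 10 genes (TMM-scaled CPM, linear axis from 0) in each library, with circles for replicate 1, triangles for replicate 2 and bars for the mean of 2. Both FeSO4 libraries sit above both Mock libraries for Pim2 and Socs2, below them for Il2rb, Stat5a, Stat5b, Cish and Pim1, while the groups overlap for Il2ra, Il2rg and Socs3.

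The receptor chains were examined first, to ask whether the receptor's own transcripts differ with iron. Il2ra (ENSMUSG00000026770, chr2:11642792-11693194, GRCm38, plus strand), which sets the high affinity of the receptor, stood at 1395 and 1586 CPM in Mock 1 and 2 and at 1481 and 1550 CPM in FeSO4 1 and 2. Both FeSO4 values lay between the Mock values. The means were 1491 ± 134.9 CPM (SD, n = 2) and 1515 ± 49.25 CPM (SD, n = 2), with a log2 fold change of 0.02 ± 0.07 (SE, edgeR adjusted p = 0.847). The 95% interval allowed any fold from 0.923 to 1.12.

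Il2rb (ENSMUSG00000068227, chr15:78479256-78511621, minus strand), the signaling chain shared with the IL-15 receptor, measured 742 and 803.1 CPM in the Mock pair, against 653.5 and 665.1 CPM in the FeSO4 pair. Both FeSO4 libraries were below both Mock libraries. Mean levels were 772.6 ± 43.21 CPM for Mock and 659.3 ± 8.171 CPM for FeSO4 (SD, n = 2 each), and the fitted difference was -0.23 ± 0.06 on the log2 scale (SE, 95% interval -0.36 to -0.10, edgeR adjusted p = 0.0136). The call was lost without Mock 2 (adjusted p = 0.0974) or without FeSO4 1 (adjusted p = 0.0691).

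Il2rg (ENSMUSG00000031304, chrX:101264385-101268255, minus strand), the chain common to the receptors of IL-2, IL-4, IL-7, IL-9, IL-15 and IL-21, had 229.6 and 203.5 CPM in the Mock pair, against 232.9 and 226.4 CPM in the FeSO4 pair. The groups overlapped. The log2 fold change was 0.08 ± 0.07 (SE, edgeR adjusted p = 0.427), and the interval ran from 0.959-fold to 1.17-fold. In the GENCODE M1 annotation the gene shares exons with Gm20489 on the same strand, and 42% of its 50-base windows also occur in a Gm20489 transcript, so its counts depend on how reads in both were assigned.

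The Stat5 genes lie side by side on chromosome 11, on opposite strands, and both fell. Stat5a (ENSMUSG00000004043, chr11:100859351-100885169, plus strand) gave 155.2 and 152.4 CPM in the Mock pair, against 115.2 and 110.2 CPM in the FeSO4 pair. The separation between the groups was far wider than the spread within them, 153.8 ± 1.93 against 112.7 ± 3.503 CPM (SD, n = 2 each). Its log2 fold change was -0.45 ± 0.07 (SE, 95% interval -0.59 to -0.31, edgeR adjusted p = 0.000167), and it was called under all 13 alternatives tried.

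Stat5b (ENSMUSG00000020919, chr11:100780731-100859004, minus strand) gave 266.9 and 281.1 CPM in the Mock pair, against 225.2 and 237.7 CPM in the FeSO4 pair. Again neither FeSO4 library reached a Mock value. Mean levels were 274 ± 10.04 CPM for Mock and 231.4 ± 8.852 CPM for FeSO4 (SD, n = 2 each), with a fitted log2 change of -0.24 ± 0.06 (SE, 95% interval -0.38 to -0.11, edgeR adjusted p = 0.0121). Without Mock 2 or without FeSO4 1 the call was lost (adjusted p = 0.0691 and 0.111). The paralogs are alike in sequence. Of the 50-base windows of Stat5a, 15.8% also occur in Stat5b transcripts, and 11.8% of those of Stat5b occur in Stat5a. Some of their reads could thus be among those set aside for more than 1 alignment. Stat5a also overlaps an exon of Stat3 on the opposite strand, and the strand setting of the counting was not given in the sources used here. Stat3 itself measured 350.1 and 391.9 CPM in the Mock pair, against 370.4 and 366.3 CPM in the FeSO4 pair, and the FeSO4 values lay inside the Mock range.

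The feedback inhibitors did not move as a group. Cish (ENSMUSG00000032578, chr9:107296659-107302784, plus strand), whose product CIS is a feedback inhibitor that STAT5 induces in T cells, was at 506.7 and 508.7 CPM in the Mock pair, against 457.5 and 464 CPM in the FeSO4 pair. Both FeSO4 libraries were lower and the replicates were close, 507.7 ± 1.39 against 460.8 ± 4.643 CPM (SD, n = 2 each). The log2 fold change of -0.14 ± 0.06 (SE, 95% interval -0.26 to -0.02) did not pass the test (edgeR adjusted p = 0.104). It passed when libraries were scaled by their size alone (adjusted p = 0.0182) and with the replicate number as a block (adjusted p = 0.0491).

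Socs2 (ENSMUSG00000020027, chr10:95383903-95417321, minus strand), best known as the brake on growth hormone signaling, was at 491.7 and 551.2 CPM in the Mock pair, against 590 and 601.1 CPM in the FeSO4 pair. Both FeSO4 libraries exceeded both Mock libraries, by a log2 fold change of 0.19 ± 0.06 (SE, 95% interval 0.06 to 0.33, edgeR adjusted p = 0.0448). This call was the closest to the threshold among the 6. Without Mock 1 the value was 0.10 (adjusted p = 0.334), without FeSO4 1 it was 0.21 (adjusted p = 0.0867) and without FeSO4 2 it was 0.18 (adjusted p = 0.137), none of them called. Of its 50-base windows, 7.27% also occur in Gm9847.

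Socs3 (ENSMUSG00000053113, chr11:117966079-117970336, minus strand), which binds gp130-type receptors and is a target of STAT3 as well as STAT5, was the lowest of the 10 genes in CPM. It measured 48.41 and 47.78 CPM in the Mock pair, against 37.1 and 61.35 CPM in the FeSO4 pair. The FeSO4 libraries lay on either side of the Mock pair, so the mean of 49.23 ± 17.15 CPM in FeSO4 against 48.09 ± 0.444 CPM in Mock (SD, n = 2 each) hides values that went apart. The log2 fold change was 0.04 ± 0.15 (SE, 95% interval -0.27 to 0.35, edgeR adjusted p = 0.892). Its direction rested on which FeSO4 library was kept, with 0.35 (adjusted p = 0.0169) without FeSO4 1 and -0.37 (adjusted p = 0.0176) without FeSO4 2.

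The PIM kinase genes went in opposite directions. Pim1 (ENSMUSG00000024014, chr17:29490785-29496111, plus strand) had 522.2 and 586.2 CPM in the Mock pair, against 384.4 and 478.3 CPM in the FeSO4 pair. Both FeSO4 libraries were lower, although the FeSO4 pair was itself spread, at 431.4 ± 66.45 CPM against 554.2 ± 45.25 CPM (SD, n = 2 each). The log2 fold change was -0.36 ± 0.08 (SE, 95% interval -0.54 to -0.18, edgeR adjusted p = 0.00617). The call was lost without Mock 2 (-0.28, adjusted p = 0.0709), without FeSO4 1 (-0.21, adjusted p = 0.0798) and in DESeq2 (-0.37, adjusted p = 0.158).

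Pim2 (ENSMUSG00000031155, chrX:7878306-7883432, plus strand) had 102.1 and 104.7 CPM in the Mock pair, against 201.9 and 165.7 CPM in the FeSO4 pair. The lower FeSO4 library was well above the higher Mock library, and the means were 183.8 ± 25.63 and 103.4 ± 1.859 CPM (SD, n = 2 each). The log2 fold change was 0.83 ± 0.08 (SE, edgeR adjusted p = 2.95e-06), a rise of 1.78-fold with a 95% interval of 1.576 to 2.004. Pim2 ranked 64 by p among the 13732 genes tested and was called under all 13 alternatives, with values from 0.68 to 0.97 when each library was left out. Pim3, the remaining PIM kinase, measured 51.19 and 57.41 CPM in the Mock pair, against 50.15 and 50.38 CPM in the FeSO4 pair, with a log2 fold change of -0.11 ± 0.08 (SE, edgeR adjusted p = 0.389), and did not pass. Neither Pim1 nor Pim2 shared a 50-base window with another gene's transcripts. Pim1 overlaps Gm16912 on the opposite strand.

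**Figure D2:**
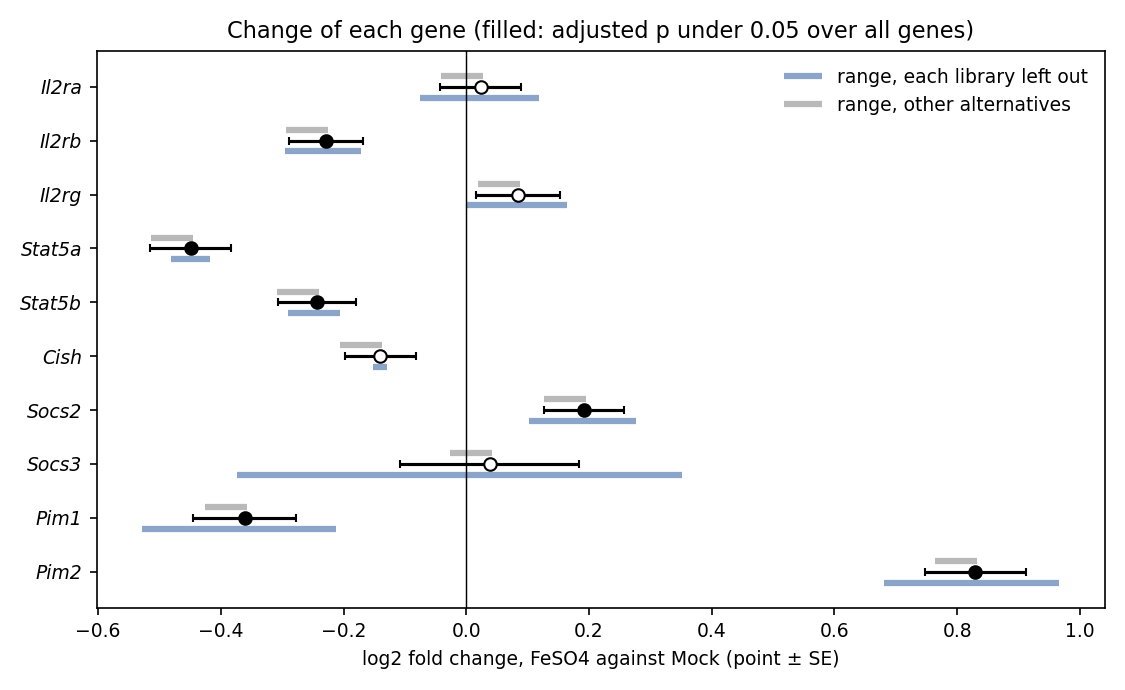
Log2 fold change of each of the 10 genes, FeSO4 against Mock (point with SE bar, filled where the adjusted p is under 0.05), with the range when each library was left out in turn (blue) and over the other alternatives (grey). Stat5a and Pim2 stay clear of 0 and called throughout, while the blue bar of Socs3 runs from -0.37 to 0.35.

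The windows just upstream of the start sites are shown for the genes whose opposite changes or close replicates stand out, namely Pim1 and Pim2, with Cish for comparison. RefSeq windows of the GRCm38.p6 assembly, 250 bases before an annotated start, were matched for 8 of the 10 genes (11 windows, with more than one start for Pim1, Stat5a and Stat5b), all but Il2rb and Socs2. Capitals mark CACGT in Cish, which is ACGTG read on the other strand, and ATTTGCAT or its reverse complement ATGCAAAT in Pim2. The Pim1 window holds neither.
Cish, chr9:107296409-107296658, plus strand: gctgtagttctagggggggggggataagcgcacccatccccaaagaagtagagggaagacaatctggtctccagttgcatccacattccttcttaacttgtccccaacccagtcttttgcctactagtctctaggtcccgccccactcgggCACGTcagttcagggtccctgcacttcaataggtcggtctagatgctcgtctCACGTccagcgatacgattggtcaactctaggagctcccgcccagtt
Pim1, first start, chr17:29490535-29490784, plus strand: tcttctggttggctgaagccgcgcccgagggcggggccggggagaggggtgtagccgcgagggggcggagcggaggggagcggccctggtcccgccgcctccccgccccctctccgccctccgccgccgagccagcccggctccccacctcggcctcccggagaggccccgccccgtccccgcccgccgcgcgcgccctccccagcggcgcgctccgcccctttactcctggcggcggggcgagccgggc
Pim2, chrX:7878056-7878305, plus strand: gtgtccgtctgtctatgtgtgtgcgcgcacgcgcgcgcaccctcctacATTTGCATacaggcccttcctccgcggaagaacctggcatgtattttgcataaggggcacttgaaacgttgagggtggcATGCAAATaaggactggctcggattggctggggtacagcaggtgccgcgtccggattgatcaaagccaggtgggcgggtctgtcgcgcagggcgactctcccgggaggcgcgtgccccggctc
The spaced palindrome TTCNNNGAA, the core of the elements that STAT5 binds, reads the same on both strands and was searched first. It occurred in 1 of the 11 windows, that of Socs3, as TTCTTAGAA beginning 154 bases before the annotated start, against 7.02% of all 32851 windows. That window (chr11:117969367-117969616) lies inside the range of the Socs3 gene given above, so its start is not the outermost of the gene. The site is shown in capitals with 10 bases on either side.
Socs3, chr11:117969502-117969530, minus strand: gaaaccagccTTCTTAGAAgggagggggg
Of the other motifs, both searched on both strands and both added after the counts had been examined, ACGTG is the core of elements bound by several helix-loop-helix factors. It occurred 2 times in the Cish window, 99 and 47 bases before the start, and 2 or more matches are found in 6.81% of all windows. A second Pim1 start, further downstream, held CACGTG, which counts as 2 overlapping matches. The octamer ATTTGCAT, known as a binding motif of POU factors and picked only after the Pim2 sequence had been read, occurred 2 times in Pim2, at 202 and 123 bases before the start, and 2 or more matches are found in 0.0974% of all windows. The GC content was 82.4% for the Pim1 window shown, 62.0% for Pim2, 71.6% for Socs3, 55.2% for Cish and 42.4% for Il2ra, against a median of 52.4% over all windows. These matches describe the letters in these windows and nothing more.

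Ratios between genes of the same library do not depend on how the libraries were scaled to each other. The ratio of Pim1 to Pim2 reads was 5.116 and 5.599 in Mock and 1.903 and 2.887 in FeSO4, a difference of -1.19 between the group means of the log2 ratios. This was the widest of the 6 ratios examined, and the groups did not overlap. Il2ra to Il2rb was 1.88 and 1.975 in Mock and 2.266 and 2.331 in FeSO4 (log2 difference 0.25, likewise of mean log2 ratios), so the α chain made up more relative to the β chain in both FeSO4 libraries. Il2rb to Il2rg was 3.231 and 3.946 against 2.806 and 2.938 (log2 difference -0.31), also without overlap. This ratio was not among those planned, and it follows from the ratios of Il2ra to Il2rb and to Il2rg. Stat5a to Stat5b was 0.5815 and 0.5424 against 0.5114 and 0.4636 (log2 difference -0.21), lower in both FeSO4 libraries. Il2ra to Il2rg (6.076 and 7.793 against 6.356 and 6.848) and Cish to Socs3 (10.47 and 10.65 against 12.33 and 7.564) overlapped. No test was run on the ratios.

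**Figure D3:**
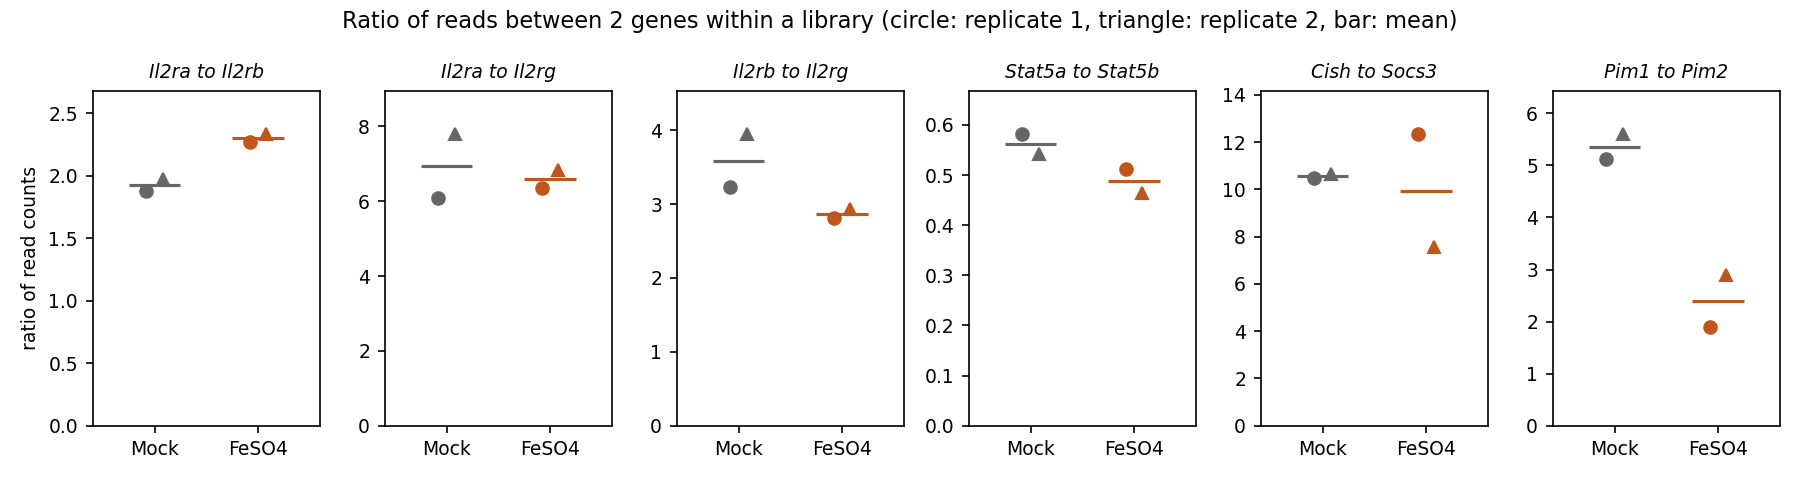
Ratio of read counts between pairs of genes within each library (linear axes from 0), with circles for replicate 1, triangles for replicate 2 and bars for the mean of 2. The Pim1 to Pim2 ratio falls from above 5 in both Mock libraries to below 3 in both FeSO4 libraries.

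Per length of exon, the levels of the 10 genes could be set beside each other as RPKM, which is CPM divided by exon length in kilobases (union of GENCODE M1 exons). In Mock, Il2ra (292.8 ± 26.52), Pim1 (281.1 ± 22.98) and Il2rb (277.4 ± 15.56) led (RPKM, SD, n = 2), and with this length these 3 did not differ beyond their spread. Il2rg (90.72 ± 7.736 RPKM) and Cish (79.09 ± 0.2192 RPKM) came next, then Socs2 (54.7 ± 4.419 RPKM), Stat5b (49.47 ± 1.81 RPKM) and Pim2 (37 ± 0.6576 RPKM). Stat5a (21.57 ± 0.2758 RPKM) and Socs3 (16.64 ± 0.1556 RPKM) closed the order, and from Il2rg downwards the single libraries of neighbours did not overlap. Socs2 and Stat5b came close, at 51.58 RPKM in Mock 1 for Socs2 and 50.75 RPKM in Mock 2 for Stat5b, and overlapped within their SD. In FeSO4, Il2ra (297.7 ± 9.617 RPKM) stood alone at the top, ahead of Il2rb (236.7 ± 2.97 RPKM) and Pim1 (218.7 ± 33.66 RPKM), which overlapped. Pim2 reached 65.76 ± 9.164 RPKM in FeSO4 and there overlapped Cish (71.78 ± 0.7212 RPKM) and Socs2 (62.48 ± 0.8202 RPKM), while Stat5a (15.8 ± 0.495 RPKM) and Socs3 (17.02 ± 5.933 RPKM) overlapped at the bottom. With the longest transcript as the length, Il2ra in Mock was at 336.8 RPKM, Il2rb at 287 RPKM, Socs2 at 122.9 RPKM and Cish at 108.1 RPKM, so the order depends on the gene model, at the top as in the middle.

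Counted together, 2 of the 10 genes were called higher, against 10.9% of all tested genes, and 4 were called lower, against 9.17%. Without Mock 2 or without FeSO4 1 only 1 (Stat5a) was called lower, and without Mock 1 or without FeSO4 2 only 1 (Pim2) was called higher. All 10 are well expressed, from the 66.9th percentile (Socs3) to the 99.7th (Il2ra) of mean level, and high genes are called more often. Among the 4547 genes at or above the level of the lowest of the 10 (48.7 CPM), a comparison added after seeing the data, 19.4% were called higher and 12.5% lower. At the threshold that the study used to display these libraries (unadjusted p under 0.05 and a log2 fold change of at least 0.5 in size), Pim2 alone passed as higher, against 4.67% of genes, and none of the 10 passed as lower, against 5.73%. Both FeSO4 libraries were above both Mock libraries for 2 genes, against 30.1% of all, and below for 5, against 29.4%. The median log2 fold change of the 10 was -0.06, beside -5e-04 over all genes tested.

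Genes that act around the receptor were then read from lists. The other γ chain cytokines and receptor chains included 7 tested genes of 11, of which 3 rose and 0 fell in edgeR (median log2 fold change 0.31), and here as for the lists that follow the shares over all tested genes are 10.9% higher and 9.17% lower. At an unadjusted p under 0.05, 1 was lower (Il21r, chosen after its value was seen), and DESeq2 and limma-voom also called 0 lower. With the replicate block, with library-size scaling or without FeSO4 2, 1 was called lower. Il9, the cytokine of the IL-9 receptor, went from 29.16 and 20.45 CPM in Mock to 87.48 and 64.35 CPM in FeSO4 (log2 fold change 1.61 ± 0.14 SE, edgeR adjusted p = 8.53e-07). Il7r, the IL-7 receptor α chain, went from 61.91 and 72.29 to 97.96 and 133.7 CPM (0.79 ± 0.11 SE, adjusted p = 0.000109). Il4, which the antibody in the medium targets as protein, went from 0.6408 and 1.028 to 3.298 and 4.782 CPM (2.27 ± 0.35 SE, adjusted p = 0.000263). Transcripts of Il2 itself were near the floor, with 9 and 8 reads in Mock and 6 and 5 in FeSO4, and were not tested. Il7 had at most 1 read in any library.

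Of the 9 Janus kinases and other STAT factors, 2 rose and 1 fell (median -0.01). The kinases that sit on the IL-2 receptor differed in direction. Jak3, bound to the γ chain, measured 375.1 and 373.8 CPM in the Mock pair, against 421.7 and 453.8 CPM in the FeSO4 pair (log2 fold change 0.23 ± 0.06 SE, edgeR adjusted p = 0.0158). Jak1, bound to the β chain, measured 572.8 and 601.8 CPM against 506.9 and 510.7 CPM (-0.21 ± 0.06 SE, adjusted p = 0.0205).

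Of 17 other negative regulators of cytokine signaling, 2 rose and 3 fell (median -0.08). The phosphatase gene Ptpn1 fell from 1033 and 1075 to 894.1 and 810.9 CPM (log2 fold change -0.31 ± 0.06 SE, edgeR adjusted p = 0.00251), and the ubiquitin ligase gene Cbl fell by 0.30 on the log2 scale (adjusted p = 0.0201). The log2 fold change of Cbl was -0.12 without Mock 2 and -0.46 without Mock 1. The phosphatase genes Ptpn6 (0.28, adjusted p = 0.00416) and Ptpn2 (0.27, adjusted p = 0.0218) rose. The third gene to fall, Socs5 (-0.51, adjusted p = 0.0265), falls outside the naming rule and was picked after its value was seen. Socs1, whose product can inhibit Janus kinases directly, stood at 174.5 and 155.3 CPM in the Mock pair, against 159.3 and 168.2 CPM in the FeSO4 pair. It was also picked after its values were seen. In the adaptor, RAS-MAPK and PI3K arms, 18 of 20 listed genes were matched and tested, and 2 rose, with a median of -0.02. One of them was Mapk3 (0.21 ± 0.07 SE, adjusted p = 0.0425), at 0.13 without Mock 2. In that list 0 fell in edgeR, DESeq2 and limma-voom, and 1 (Pik3r1, chosen after its value was seen) was lower at an unadjusted p under 0.05. With the replicate block, upper-quartile or library-size scaling, or without Mock 1, 1 was called lower.

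Of 17 other genes known to be raised by IL-2 or STAT5, 2 rose and 4 fell (median -0.11). The number that fell was 8 with library-size scaling, and 6 with the replicate block or without Mock 1. The 4 that fell were Dusp5, a MAPK phosphatase, from 110.8 and 126.3 to 69.85 and 74.91 CPM (log2 fold change -0.71 ± 0.08 SE, edgeR adjusted p = 9.55e-06), the cytokine gene Osm (-0.57 ± 0.07 SE, adjusted p = 2.31e-05), the stress-response gene Gadd45g (-0.73 ± 0.11 SE, adjusted p = 0.000178) and Foxp3. Foxp3 measured 586.6 and 693.4 CPM in the Mock pair, against 375.6 and 471.6 CPM in the FeSO4 pair (-0.59 ± 0.09 SE, adjusted p = 0.000223). Both that rose were low: Prdm1 went from 0.6901 and 1.028 to 2.685 and 4.052 CPM and Gzmb from 1.824 and 1.267 to 2.919 and 3.215 CPM, and both were picked after their values were seen. Among 7 genes known to be lowered by IL-2 or STAT5, 3 rose and 2 fell (median 0.26). Il7r and Tcf7 (0.26 ± 0.07 SE, adjusted p = 0.0102) rose, and Il6st (-0.41 ± 0.10 SE, adjusted p = 0.00676) and Il6ra (-0.23 ± 0.07 SE, adjusted p = 0.0246), the chains of the IL-6 receptor, fell. Without Mock 2 the log2 fold changes were -0.23 for Il6st and -0.14 for Il6ra, and without FeSO4 2 that of Tcf7 was 0.17. The third gene to rise, Il17a, had under 1 CPM in every library.

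Receptors and cytokines that can signal to STAT3, though not all mainly so, were listed because Socs3 is a target of STAT3 as well as STAT5. Whether any of them acted on Socs3 here was not tested. Of the 10 tested among 13, 2 rose and 3 fell (median -0.09). Il12rb1 rose from 18.04 and 19.47 to 52.63 and 40.15 CPM (log2 fold change 1.30 ± 0.12 SE, edgeR adjusted p = 1.34e-06) and Il10 from 3.007 and 4.711 to 9.837 and 13.08 CPM (1.57 ± 0.22 SE, adjusted p = 8.53e-05). The 3 that fell were Il6st, Il6ra and Il10ra, the last named after its value was seen. Il6 and Il23r had no reads in any library, which at this depth allows up to 3 reads. Il7r, Il6st, Il6ra and Il21r each stand in more than one list.

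Of the 26 list genes called, 11 kept the call under every alternative, among them Il4, Il9, Ptpn6, Osm, Prdm1, Dusp5, Gadd45g, Il10 and Il12rb1. Another 3, Il7r, Ptpn1 and Foxp3, lost it only when all genes with at least 1 count were tested. The other 12 lost it without at least 1 single library. Without Mock 2 these were Jak1, Jak3, Socs5, Cbl, Mapk3, Gzmb, Tcf7, Il6ra, Il6st, Il17a and Il10ra. Without FeSO4 1 they were Jak1, Socs5, Ptpn2, Mapk3, Il6ra, Il17a and Il10ra, without FeSO4 2 Jak1, Jak3, Socs5, Mapk3, Gzmb, Tcf7 and Il17a, and without Mock 1 Jak3, Ptpn2, Il17a and Il10ra.

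**Figure D4:**
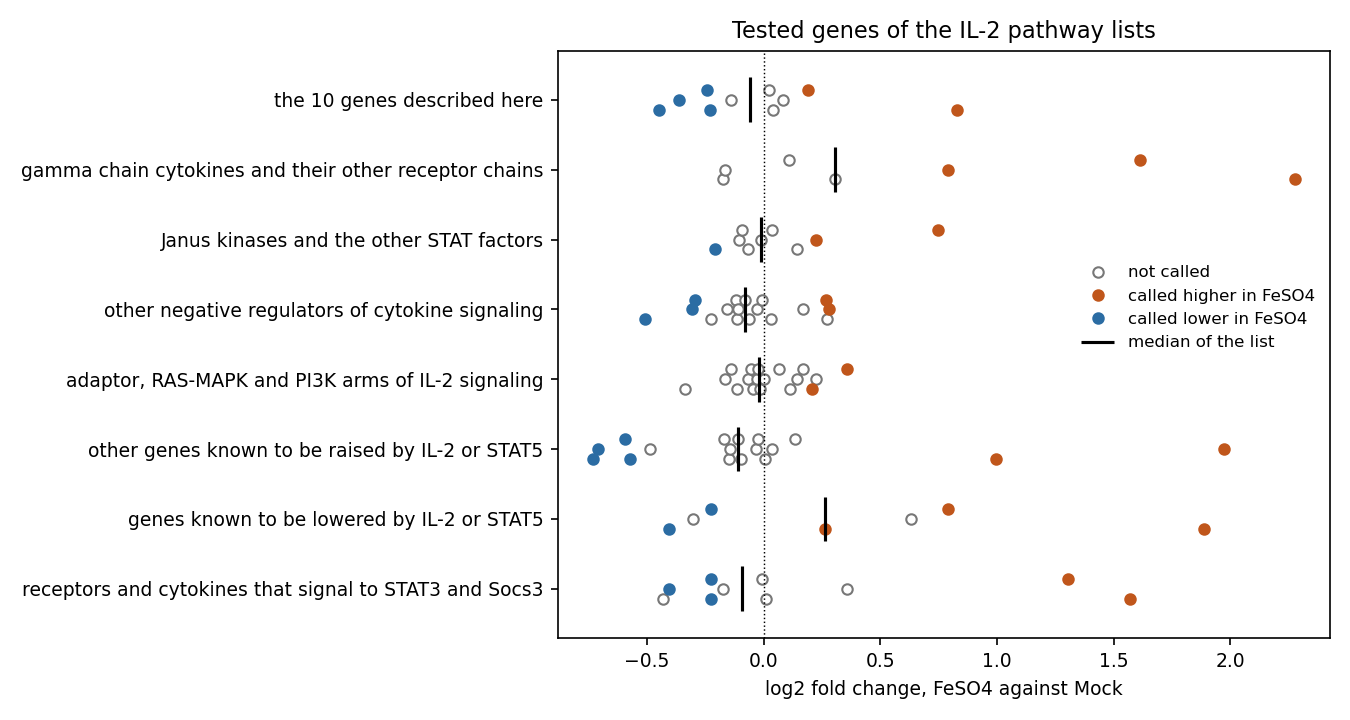
Log2 fold change, FeSO4 against Mock, of every tested gene of the 10 and of each list (dots, filled orange where called higher and blue where called lower, open where not called), with the median of the list as a vertical bar. Medians lie between -0.11 and 0.31, and lists other than the adaptor list and the γ chain list hold called genes on both sides of 0.

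The genes most like Il2ra and Cish over the 4 libraries were also sought, by the Euclidean distance of mean-centred log2 CPM among 8428 genes with a symbol and a mean of at least 10 CPM. For Il2ra they were Exog (distance 0.0141), Spin1 (0.0145) and Ahcyl1 (0.0156), and for Cish they were Akna (0.00983), Lrrc8d (0.00999) and Tmcc1 (0.013). With 4 libraries many genes trace such a shape, and the distances are descriptions only.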

How the data were processed

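The authors deposited whole-number read counts for each Ensembl gene and library, with no normalization. The study's methods name STAR on mm9 and DESeq, whereas the submitters' processing notes name Trim Galore 0.6.7, STAR 2.7.9a, featureCounts and mm10. The annotation release and strand setting are not given in the sources used here. Positions are of GRCm38, of which mm10 is another name, and exon lengths and overlaps of GENCODE M1 (NCBIM37). The 5 closing rows name no gene (unassigned reads, each 0.802% to 6.03% of a library) and stayed out of library sizes and tests. Symbols were found for 32799 of 47729 identifiers, and the rest held 0.755% of counts.

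Genes were kept by edgeR's filterByExpr (13732, with 99.95% of counts), brought to a common scale with TMM factors and compared, FeSO4 against Mock, by the quasi-likelihood test of edgeR 4.0.16 in R 4.3.3 without covariates and with Benjamini-Hochberg adjustment. The biological coefficient of variation was 8.24%. Replicates differed beyond counting noise (chi-square per degree of freedom 11.4 in Mock and 9.35 in FeSO4). On simulated counts for this comparison (13450 genes), 61.5% of genes changed by 0.5 on the log2 scale, 78.8% by 1 and 92.2% by 2 were called.

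Alternatives were other scalings and filters, DESeq2 1.42.0, limma-voom (limma 3.58.1), a replicate block, each library left out, an offset of 1 in ratios and another gene length. The older edgeR test was added after seeing the data. The 10 genes and all lists were chosen with earlier results of these data known. From each list, up to 4 called genes of smallest p were named, and genes at or under 3 counts in every library. A planned comparison of protein sequences was not run. Some genes of the lists enter the counts and medians but are not reported here by name.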

Additional observations from a re-analysis of the deposited data

Results flagged for a closer look

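Values outside the gene counts stood apart between the groups. The share of reads set aside for low alignment quality was 0.978% and 0.988% in the FeSO4 libraries, above the 0.802% and 0.929% in Mock. The share of reads with more than one alignment was 4.6% and 4.62% in FeSO4, above the 4.42% and 4.27% in Mock. The share of reads in no gene was lower in FeSO4, at 4.36% and 5.21% against 5.31% and 6.03% in Mock, and so was the number of genes detected, at 17639 and 17849 against 19427 and 18597. Reads with more than one alignment bear on genes with near copies, such as Stat5a and Stat5b, and the part of all these values in the results was not tested. Groups of 2 libraries were too small to look for a library far from the others.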

How the results depend on the processing

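Pim2 and Stat5a kept direction and call under all 13 alternatives, and Il2rb and Stat5b were called under 10, Pim1 under 9 and Socs2 under 7 of them. Scaling by library size alone gave -0.0413 for Il2ra and -0.0258 for Socs3, both reversed, -0.205 for Cish (called) and 0.13 for Socs2 (not called), with 980 genes higher of all tested and 1 of the 10 higher. That scaling shifted the median of all genes by less than 0.1, and called genes were higher in 35.1% of cases against 54.2% with TMM. Upper-quartile scaling gave 0.17 for Socs2, not called, leaving 1 of the 10 higher. Keeping all genes with at least 1 count called 524 genes higher and 304 lower, and of the 10 genes 1 higher and 1 lower, with Il2rb at -0.23 (adjusted p = 0.0889), Stat5b at -0.24 (0.0878), Pim1 at -0.36 (0.159) and Socs2 at 0.19 (0.183) not called. DESeq2 gave -0.37 for Pim1 (0.158), and limma-voom -0.0032 for Socs3, reversed. With the replicate block, 1847 genes were higher and 1580 lower, and Cish at -0.14 was called (adjusted p = 0.0491). Deviations of same-numbered libraries correlated at 0.0293 over all 13732 genes and at 0.22 over the 8522 that average 10 CPM or more, as all 10 genes do. The methods speak of pairs from independent experiments, but with only 2 pairs, and labels that do not tie a number to an experiment, whether the numbers pair the libraries was not settled.

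Leaving out each library in turn gave 926 to 1155 genes higher and 751 to 1060 lower, and 1 to 2 of the 10 genes higher and 1 to 5 lower. The values ran from -0.0757 to 0.1184 for Il2ra (-0.0757 without Mock 1, -0.0098 without FeSO4 2), -0.2946 to -0.1713 for Il2rb, -0.0007 to 0.1643 for Il2rg (-0.0007 without Mock 2), -0.2902 to -0.205 for Stat5b, -0.1527 to -0.1298 for Cish, 0.1019 to 0.2759 for Socs2, -0.3743 to 0.3513 for Socs3 and -0.5279 to -0.2124 for Pim1. A group left with 1 library was assumed to vary like the other. Of 337 values of 26 called genes of the lists, 286 kept their call, 51 lost it and none reversed. The causes were not tested. Depth limited only genes of a few reads, such as Il2, and with 2 libraries a group small changes can be missed.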
